A study of Caenorhabditis elegans with 2 samples.

Results

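Transfer RNA (tRNA) genes of *Caenorhabditis elegans* were examined for peaks of CEH-82, a homeobox protein, one of the transcription factors with a homeodomain as their part that contacts DNA. The annotation holds 612 tRNA genes on the nuclear chromosomes, 276 of them on the X chromosome and 336 on the autosomes. The 182 genes described here were chosen by one criterion, a candidate peak summit 1000 bp upstream to 200 bp downstream of the gene start in the list called on both replicates together (the pooled list, 9070 regions). Of these genes, 92 lie on X and 90 on autosomes, and they share 166 candidate peaks, 82 on X and 84 on autosomes. The remaining 430 nuclear tRNA genes had no candidate summit in the window. The pooled list includes background, so a candidate peak is not by itself evidence of binding.

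Chromatin immunoprecipitation with sequencing (ChIP-seq), which recovers and sequences the DNA attached to a chosen protein, was done on whole larvae of the second stage (L2). The strain was OP212, with the genotype unc-119(ed3) III; ddEx58, in which CEH-82 carries a green fluorescent protein tag (eGFP), and the labels call the transgene an insertion while the name ddEx58 marks an extrachromosomal array, a form that is not passed to every cell. Whether every cell carried the tagged protein is thus not settled by the labels. Both samples were biological replicates of this one group, of mixed sex, and the label of the antibody gives only ceh-82. The lists cover whole animals, so a peak cannot be assigned to a tissue. They hold no read counts, so the depth behind each value is unknown. Without an untagged or untreated group the comparison made here is between chromosomes within the same animals.

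Transfer RNAs carry amino acids to the ribosome and read the codons of messenger RNA. Their genes are short and are transcribed by RNA polymerase III, which is recruited through 2 promoter elements inside the gene, the A box and the B box. The B box is bound by the factor TFIIIC, which brings TFIIIB, and TFIIIB brings the polymerase to the start. In *C. elegans* the X chromosome is present in 2 copies in hermaphrodites and in 1 copy in males, and the dosage compensation machinery acts on it.

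The windows below are examples in which the summit lay in or close to a tRNA gene. Each is 151 bp of the reference sequence (RefSeq, WBcel235) centred on the summit of a reproducible peak and is printed 5′ to 3′ on the strand of the named tRNA gene, with that gene in capitals. In R04D3.t2 and W03G11.t1 the summit fell inside a tRNA gene of 73 bp, in W02H3.t1, F46G11.t2 and T01B4.t1 it fell 19 to 48 bp before the gene, and in T23F1.t1 it fell 21 bp beyond the gene's end. Not shown are the windows at ZK994.t2, R04A9.t1 and Y59E1B.t2. Their summits lay 910, 222 and 82 bp before the gene, and the windows hold no base of it.
F46G11.t2, tRNA for proline, chrX:5801226-5801376, minus strand: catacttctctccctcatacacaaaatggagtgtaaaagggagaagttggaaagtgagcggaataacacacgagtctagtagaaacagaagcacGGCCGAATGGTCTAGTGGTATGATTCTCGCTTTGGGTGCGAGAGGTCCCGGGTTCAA
R04D3.t2, tRNA for valine, chrX:13306994-13307144, plus strand: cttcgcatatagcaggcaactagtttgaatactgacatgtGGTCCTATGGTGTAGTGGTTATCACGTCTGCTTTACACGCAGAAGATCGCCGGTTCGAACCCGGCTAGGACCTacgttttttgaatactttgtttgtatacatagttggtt
W03G11.t1, tRNA for lysine, chrX:12106110-12106260, minus strand: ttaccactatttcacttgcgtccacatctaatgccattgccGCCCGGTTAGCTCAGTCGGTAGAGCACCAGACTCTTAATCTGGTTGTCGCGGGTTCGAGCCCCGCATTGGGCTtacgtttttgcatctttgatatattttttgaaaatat
W02H3.t1, tRNA for leucine, chrX:11095576-11095726, plus strand: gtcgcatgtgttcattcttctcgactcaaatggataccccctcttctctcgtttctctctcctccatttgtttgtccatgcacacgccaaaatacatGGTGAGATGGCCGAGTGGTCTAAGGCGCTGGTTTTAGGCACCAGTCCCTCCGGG
T01B4.t1, tRNA for valine, chrX:16298218-16298368, plus strand: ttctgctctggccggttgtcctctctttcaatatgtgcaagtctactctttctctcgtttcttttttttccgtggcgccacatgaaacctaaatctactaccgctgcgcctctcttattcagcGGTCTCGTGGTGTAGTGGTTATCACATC
T23F1.t1, tRNA for lysine, chrV:15465104-15465254, plus strand: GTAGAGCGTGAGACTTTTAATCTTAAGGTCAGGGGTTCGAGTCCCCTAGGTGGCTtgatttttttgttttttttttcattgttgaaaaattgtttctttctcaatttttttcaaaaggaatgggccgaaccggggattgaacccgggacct

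The B box letters GTTCNANNC stand at gene positions 53 to 61, counted from the gene's first base, in both genes shown whole. They were found on the sense strand of 587 of 612 nuclear tRNA genes (95.9%) and of 174 of the 182 genes with a candidate summit (95.6%). The lower-case end of the T23F1.t1 window runs into T23F1.t2, a tRNA gene for proline on the opposite strand that shares the peak.

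A larger share of the tRNA peaks of X than of the autosomal tRNA peaks was in the reproducible list. The reproducible list holds the 537 regions of the pooled list that passed the authors' irreproducible discovery rate threshold. These are exactly the 537 regions of highest pooled signal, so being reproducible and having a high pooled signal are 1 measure here, and it does not by itself show a summit in each replicate. On X, 13 of 82 tRNA peaks were reproducible (15.9%, exact Clopper-Pearson 95% interval 8.72% to 25.6%), against 3 of 84 on autosomes (3.57%, 0.743% to 10.1%). Over all pooled peaks the share was 6.45% on X (116 of 1798) and 5.79% on autosomes (421 of 7272). The interval of the X tRNA share lies above the share of all X peaks. That of the autosomal tRNA share, which rests on 3 peaks, holds the share of all autosomal peaks. Against peaks in the windows of genes of all classes, tRNA genes included, the reading differs. Of these, 10.5% were reproducible on X (81 of 771), which lies inside the X tRNA interval. On autosomes 10.2% were (337 of 3298), just above the autosomal tRNA interval. The intervals of the tRNA shares overlap between 8.72% and 10.1%. They treat peaks as units and cover counting only. No test was made, because candidates and reproducible peaks come from the same pooled calling and peaks are not replicates.

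Counted per gene, both shares were higher than per peak, and neighbouring tRNA genes share peaks. Of 92 tRNA genes with a candidate summit on X, 19 had a reproducible one (20.7%, 12.9% to 30.4%), against 4 of 90 on autosomes (4.44%, 1.22% to 11%). Genes of all classes with a candidate summit had a reproducible one in 12.6% of cases on X (129 of 1021) and in 12.5% on autosomes (652 of 5236). The X tRNA interval lies just above the X share of all classes, and the autosomal tRNA interval lies below the autosomal one. The 19 genes on X rest on 13 peaks, 5 of which lie in the window of more than 1 tRNA gene. Among all tRNA peaks, 14 of 82 on X and 10 of 84 on autosomes lay in the window of more than 1 tRNA gene.

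**Figure D1:**
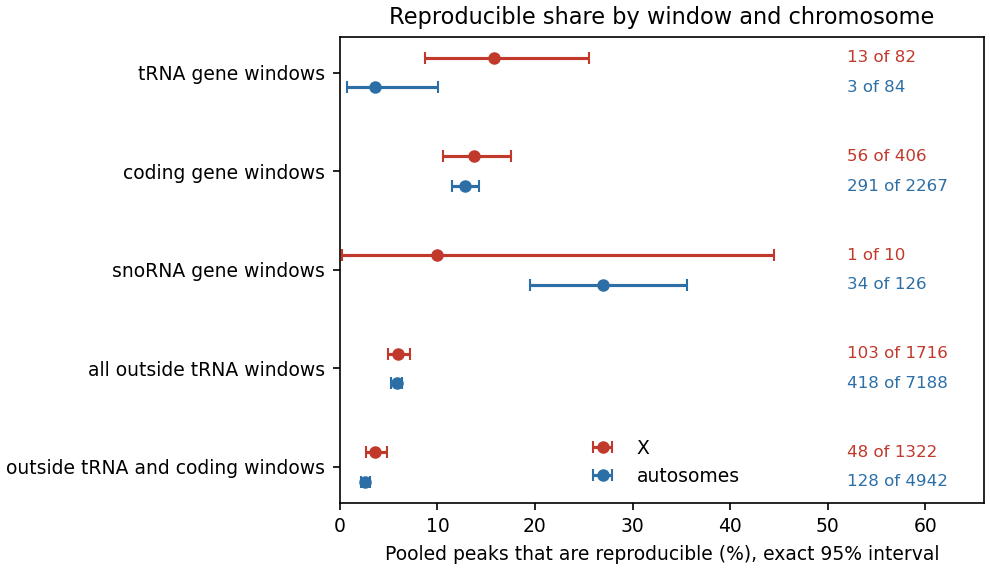
Share of pooled peaks in the reproducible list (horizontal axis, percent) for peaks in tRNA, coding and snoRNA gene windows and for peaks outside them, on X (red) and autosomes (blue), with exact 95% intervals as bars and the counts at the right. The tRNA windows reach 15.9% on X and 3.57% on autosomes, while the coding windows lie at 13.8% on X and 12.8% on autosomes.

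The shares of coding gene peaks lay close together. In coding gene windows 56 of 406 peaks were reproducible on X (13.8%, 10.6% to 17.5%) and 291 of 2267 on autosomes (12.8%, 11.5% to 14.3%). The X share here lies inside the interval of the X tRNA share, while the autosomal share lies above the autosomal tRNA interval. Small nucleolar RNA (snoRNA) genes, whose products guide the chemical modification of ribosomal RNA, had 1 reproducible peak of 10 on X and 34 of 126 on autosomes (27.0%). Small nuclear RNA (snRNA) genes, which encode RNAs of the spliceosome, had 0 of 1 on X and 9 of 26 on autosomes (34.6%). The few peaks of these small RNA classes on X leave their X shares with wide intervals. Peaks outside all tRNA windows were reproducible at 6.0% on X (103 of 1716) and 5.82% on autosomes (418 of 7188), and those outside tRNA and coding windows at 3.63% on X (48 of 1322) and 2.59% on autosomes (128 of 4942).

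The share of genes with a candidate peak was higher for tRNA genes than for coding genes, on X and on autosomes. On X 33.3% of tRNA genes had a candidate summit (92 of 276, 27.8% to 39.2%), against 26.8% on autosomes (90 of 336, 22.1% to 31.9%), and these 2 intervals overlap. Of the coding genes, 15.2% had one on X (416 of 2731) and 15.5% on autosomes (2676 of 17242). Among snoRNA genes it was 27.3% on X (9 of 33) and 40.6% on autosomes (127 of 313), so a candidate share above that of coding genes was not particular to tRNA genes. The candidate share chose the genes described here and is given as a description. Many candidates were weak by the deposited q-value. Its −log10 was 1.30 at rank 1076 of the pooled list (F56C3.t1) and 0.0184 at C02B4.t1, the weakest tRNA peak. The median pooled rank of tRNA peaks was 1574 on X and 2428 on autosomes, so most of them had a weaker q-value than F56C3.t1.

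The individual autosomes had few reproducible tRNA peaks each. Chromosome V had 2 reproducible among 17 tRNA peaks, chromosome I had 1 among 22, and chromosomes II, III and IV had 0 among 10, 15 and 20. Over all pooled peaks of the autosomes 5.79% were reproducible (421 of 7272). At such a share, counts this small do not set any single autosome apart. The median signal of tRNA peaks was 12.5 on X, 9.14 on chromosome I, 12.2 on II, 10.6 on III, 10.01 on IV and 11.8 on V. The signal value is the score of each peak as the authors deposited it, with no stated scale. By this score chromosomes II and V came close to X, and chromosome I was lowest.

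**Figure D2:**
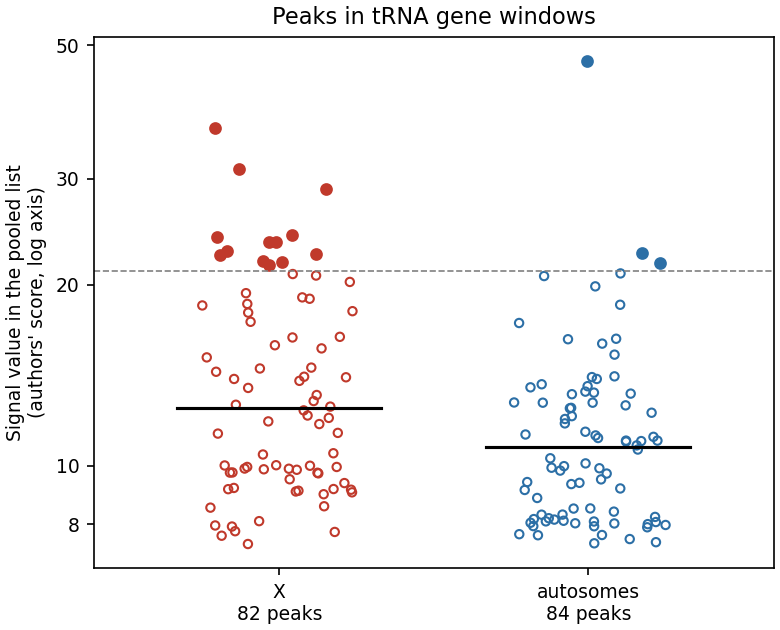
Signal value of each tRNA peak in the pooled list (the authors' score, logarithmic axis), on X (82 peaks) and on autosomes (84 peaks), with reproducible peaks filled, solid lines at the medians and a dashed line at the lowest signal of the reproducible list, 21.1. The medians are 12.5 on X and 10.7 on autosomes, and 13 peaks on X and 3 on autosomes lie above the dashed line.

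Signal values over the whole set of tRNA peaks followed the same order with much overlap. On X they ran from 7.41 to 36.4 with a median of 12.5 (quartiles 9.74 and 18.4), and on autosomes from 7.43 to 47.1 with a median of 10.7 (quartiles 8.21 and 13.2). Peaks outside tRNA windows had medians of 8.89 on X and 8.97 on autosomes. Reproducible peaks of the whole genome had a median of 28.2 and reached 211, and most reproducible tRNA peaks lay in its weaker part. In the stronger 50% of the reproducible list (269 regions) were 3 tRNA peaks on X and 1 on autosomes. With the threshold loosened to the 1074 strongest pooled regions, 30 of 82 tRNA peaks on X entered (36.6%), against 12 of 84 on autosomes (14.3%), where all pooled peaks entered at 12.8% on X and 11.6% on autosomes.

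The strongest tRNA peak of X lay at a pair of proline tRNA genes. It spans X:5801169-5801432, its summit is 19 bp before F46G11.t2 and 171 bp before F46G11.t1, and its pooled signal was 36.4 (rank 150 of the pooled list). In replicate 1 its signal was 10.6 (rank 246) and in replicate 2 it was 25.9 (rank 143), and it was the single tRNA peak of X among the 537 strongest of each replicate. Another proline gene, R04D3.t3, shares the peak at X:13306937-13307200 with the valine gene R04D3.t2, and that summit lies 35 bp inside R04D3.t2 and 961 bp before R04D3.t3. Its signal was 28.8 pooled, 18.1 in replicate 1 (rank 69) and 10.6 in replicate 2 (rank 998). This peak ranked higher in replicate 1, unlike the F46G11 peak. The proline gene Y59E1B.t2 had the weakest reproducible tRNA peak of X at X:1880838-1881101, 82 bp before its start, with a signal of 21.5 pooled, 5.44 in replicate 1 (rank 3275) and 12.9 in replicate 2 (rank 689).

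Counted by genes, proline was the most frequent product on X with a reproducible summit, at 4 of the 10 proline genes that had a candidate summit, of 20 annotated on X. Of these, F46G11.t1 and F46G11.t2 share a peak, and R04D3.t3 is counted through the width of the window. The summit nearest to R04D3.t3, 78 bp before the gene, had a signal of 11.7 (rank 1838) and was not reproducible. F46G11.t1, F46G11.t2, R04D3.t3 and the autosomal T23F1.t2 are identical in sequence and belong to a set of 24 identical genes, 13 of them on X. Y59E1B.t2 differs from them at 5 of 72 positions.

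The tyrosine tRNA genes R11.t1, R11.t2 and R11.t3 share 1 peak at X:16209768-16210031, whose summit is 48 bp before R11.t1, 589 bp before R11.t2 and 992 bp before R11.t3. Its signal was 31.1 pooled (rank 215), 8.18 in replicate 1 (rank 589) and 24.0 in replicate 2 (rank 165). These 3 genes are identical to each other, and all 6 genes of that sequence lie on X. Only R11.t1 starts close to the summit, so R11.t2 and R11.t3 are counted through the width of the window.

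Lysine and leucine tRNA genes had single-gene peaks. W03G11.t1, for lysine, had its summit 34 bp inside the gene in the peak X:12106053-12106316, with a signal of 24.2 pooled, 8.35 in replicate 1 (rank 548) and 15.5 in replicate 2 (rank 466). W02H3.t1, for leucine, had its summit 22 bp before the gene in X:11095519-11095782, with a signal of 23.5 pooled and 17.2 in replicate 2 (rank 376), and its nearest replicate 1 summit was just over 100 bp away with a signal of 2.51 (rank 25688). The other leucine gene, C04A11.t1, is at 119 bp the longest gene with a reproducible summit, and its summit fell 27 bp inside it in X:13665450-13665713. It had a signal of 22.8 pooled and 17.9 in replicate 2 (rank 336), with the nearest replicate 1 summit 160 bp away (5.12, rank 4071). Both leucine genes thus had their support within 100 bp in replicate 2 alone. C04A11.t1 is also the single reproducible X gene without an identical copy in the genome.

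Glutamate, glutamine and asparagine tRNA genes accounted for 4 peaks, one of them shared with a glycine gene. M02F4.t2, for glutamate, and M02F4.t1, for glycine, share X:3035996-3036259, whose summit is 81 bp before M02F4.t2 and 36 bp before M02F4.t1, with a signal of 22.5 pooled, 7.62 in replicate 1 (rank 779) and 13.8 in replicate 2 (rank 590). C28G1.t1, also for glutamate, had its summit 35 bp before the gene in X:8835946-8836209, with a signal of 21.8 pooled, 13.2 in replicate 1 (rank 148) and 7.75 in replicate 2 (rank 2229). This is the one reproducible tRNA peak of X that also lay in the window of a coding gene, C28G1.2, whose start is 62 bp away. R04A9.t1, for glutamine, had the most distant summit of the X group, 222 bp before the gene in X:410037-410300, with a signal of 24.0 pooled and 18.6 in replicate 2 (rank 306). F41D9.t3, for asparagine, had a summit 26 bp before the gene in X:8404341-8404604, with a signal of 21.9 pooled and 16.2 in replicate 2 (rank 427). Neither had a replicate 1 summit within 100 bp, and the nearest ones lay 179 bp away for R04A9.t1 (5.92, rank 2309) and 109 bp away for F41D9.t3 (7.12, rank 1012).

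The small aliphatic amino acids alanine and valine had the last of the X peaks. F15G9.t1 and F15G9.t2, for alanine, share X:9743551-9743814, with the summit 94 bp past the start of F15G9.t1 and 64 bp before F15G9.t2. Its signal was 23.5 pooled and 13.5 in replicate 2 (rank 619), and the nearest replicate 1 summit was 723 bp away. Of all reproducible tRNA peaks this had the least replicate 1 support by distance. T01B4.t1, for valine, had its summit 48 bp before the gene in X:16298161-16298424, with a signal of 22.4 pooled and 20.2 in replicate 2 (rank 253), and its nearest replicate 1 summit was 207 bp away (3.90, rank 10281).

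The 3 autosomal peaks include the strongest and one of the weakest of all. At ZK994.t2, for lysine, the peak V:8500414-8500677 had a signal of 47.1 pooled (rank 79), 10.8 in replicate 1 (rank 236) and 34.7 in replicate 2 (rank 72), but its summit is 910 bp before the gene, in an intron of the coding gene pxn-1. At T23F1.t1, for lysine, and T23F1.t2, for proline, V:15465047-15465310 had a signal of 22.5 pooled, 8.78 in replicate 1 (rank 455) and 12.2 in replicate 2 (rank 764), with the summit 93 bp past the start of T23F1.t1 and 117 bp past that of T23F1.t2, between the ends of these convergent genes. At F47G6.t1, for arginine, the peak at positions 1446942 to 1447205 of chromosome I had a signal of 21.8 pooled and 11.7 in replicate 2 (rank 828), 64 bp before the gene and inside an intron of the coding gene spe-15, with the nearest replicate 1 summit 107 bp away (6.52, rank 1483). Only the T23F1 and F47G6 summits lay within 100 bp of a tRNA gene. ZK994.t2 and T23F1.t1 are identical, members of a set of 14 identical lysine genes, and differ from the X gene W03G11.t1 at 20 of 73 positions.

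**Figure D3:**
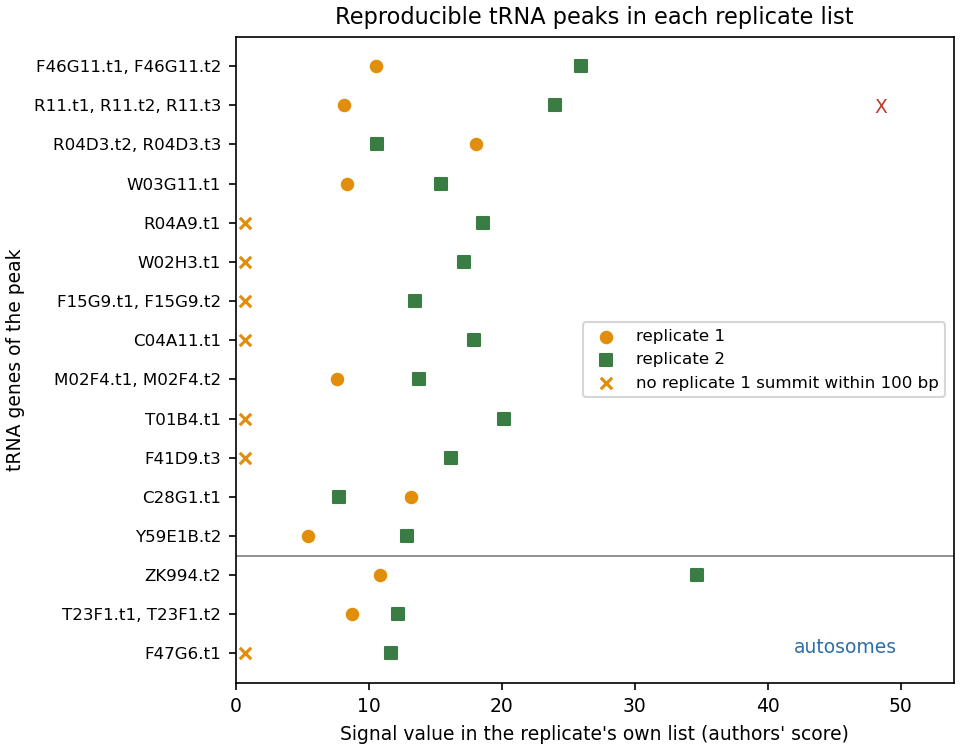
Signal value of each of the 16 reproducible tRNA peaks (rows, ordered by pooled signal within X and within autosomes) in the list of replicate 1 (orange circles) and replicate 2 (green squares), with a cross where replicate 1 had no summit within 100 bp. All 16 had a replicate 2 summit, and 7 of 13 on X and 2 of 3 on autosomes had a replicate 1 summit.

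The support of tRNA peaks was uneven between the replicates. Of all tRNA peaks, 52 of 82 on X (63.4%) and 47 of 84 on autosomes (56.0%) had a summit within 100 bp in the replicate 1 list, and 74 of 82 on X (90.2%) and 69 of 84 on autosomes (82.1%) had one in the replicate 2 list. Both lists supported 44 peaks on X and 36 on autosomes, and neither list supported 0 on X and 4 on autosomes. Peaks outside tRNA windows had replicate 1 summits at 58.7% on X and 59.0% on autosomes, and replicate 2 summits at 73.5% on X and 74.9% on autosomes. The tRNA peaks thus stood near the other peaks in replicate 1 and above them in replicate 2, on X and on autosomes. Each replicate list holds 30000 regions and includes background, so a summit in it is weak support on its own.

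Among reproducible peaks, the share with a replicate 1 summit was lower at tRNA genes than elsewhere. In replicate 1, 7 of 13 on X (53.8%) and 2 of 3 on autosomes had a summit within 100 bp, against 92 of 103 reproducible peaks outside tRNA windows on X (89.3%) and 391 of 418 on autosomes (93.5%). In replicate 2, all 13 on X and all 3 on autosomes had one. The replicate 2 share of reproducible peaks outside tRNA windows was not computed, so full support there is not shown to be particular to tRNA genes. Of the 16, 9 had a summit within 100 bp in both replicates (56.3%), 7 within 50 bp and 14 within 200 bp (87.5%). Of the 7 without a replicate 1 summit within 100 bp, 3 had one at most 109 bp away, and the other 4 had their nearest one 160 to 723 bp away. At R04A9.t1 that nearest summit lies closer to another, weaker candidate peak of the same gene, 22 bp from it. The difference was not tested, as the replicate reads are part of the pooled list. The groups also differ in strength. The median pooled signal was 23.5 for the reproducible tRNA peaks of X and 28.2 for the whole reproducible list. No comparison at like signal was made, so the lower share cannot be credited to tRNA genes as such.

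Taken alone, each replicate put X above autosomes by a narrower margin. Among the 537 strongest regions of replicate 1 were 9 of 82 tRNA peaks on X (11%) and 5 of 84 on autosomes (5.95%), where all pooled peaks gave 6.95% on X and 5.13% on autosomes. Among the 537 strongest of replicate 2 were 8 of 82 on X (9.76%) and 2 of 84 on autosomes (2.38%), where all pooled peaks gave 5.84% on X and 5.76% on autosomes. The exact interval of the X tRNA share was 5.14% to 19.8% in replicate 1 and 4.31% to 18.3% in replicate 2. That of the autosomal tRNA share was 1.96% to 13.35% in replicate 1 and 0.290% to 8.34% in replicate 2. In each replicate the X interval holds the share of all X peaks and overlaps the autosomal tRNA interval. Neither replicate alone thus set the X tRNA share apart from X peaks in general. The autosomal tRNA share was slightly above that of all autosomal peaks in replicate 1 and lower in replicate 2, on 5 and 2 peaks. A single tRNA peak on X, at F46G11.t1 and F46G11.t2, and a single one on autosomes, at ZK994.t2, were among the strongest of both. Of the reproducible tRNA peaks, 3 of 13 on X and 2 of 3 on autosomes were among the strongest of replicate 1, and 8 of 13 on X and 1 of 3 on autosomes among the strongest of replicate 2.

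The largest group of tRNA summits on X lay just before the gene. Measured to the nearest tRNA gene start, the median summit position was 24 bp upstream on X and 27.5 bp upstream on autosomes, so the medians were close, but the spread differed. The 50 bp before the start held 31 of 82 summits on X (37.8%) and 16 of 84 on autosomes (19.0%), while 50 to 99 bp past the start, near the end of the gene, lay 10 on X (12.2%) and 20 on autosomes (23.8%). These distance ranges were chosen after the sequences had been seen, and the difference was not tested. Within 100 bp of the start were 66 of 82 on X and 56 of 84 on autosomes. Among the reproducible peaks 12 of 13 on X and 2 of 3 on autosomes were within 100 bp of the start.

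**Figure D4:**
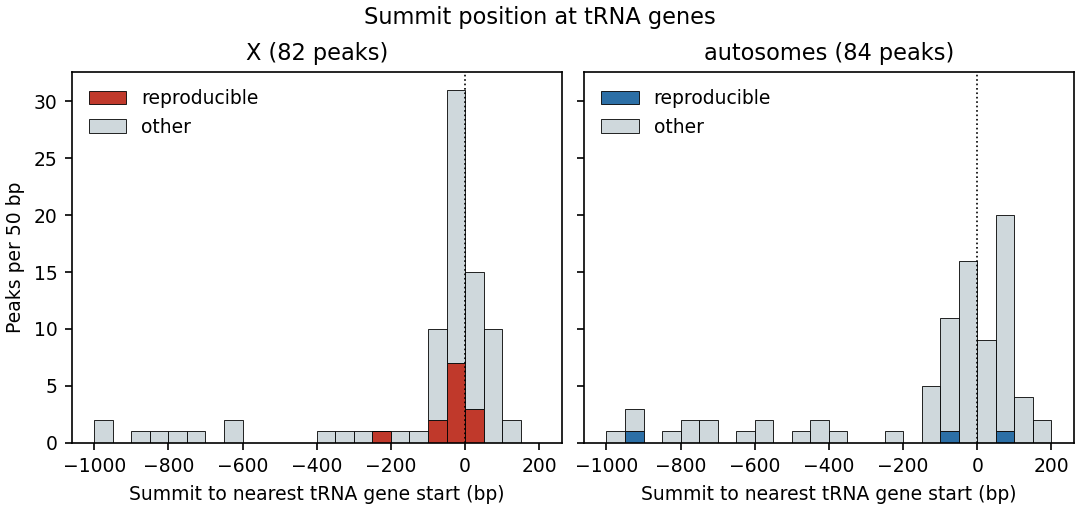
Distance of each tRNA peak's summit from the nearest tRNA gene start (horizontal axis, bp, negative is upstream), as counts of peaks per 50 bp on X (left) and on autosomes (right), with reproducible peaks coloured and others grey. The 50 bp before the start hold 31 peaks on X and 16 on autosomes.

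Measured to the nearest end or body of a tRNA gene, 68 of 82 summits on X (82.9%) and 62 of 84 on autosomes (73.8%) lay within 100 bp, and 24 on X and 23 on autosomes lay inside a tRNA gene. The window's edges set some members. Just inside were Y73F8A.t1 on an autosome with a summit 999 bp upstream (signal 8.02), C18A11.t2 on X with one 996 bp upstream (9.03), and T09B4.t1 on an autosome with one 173 bp past the start (11.2). Of the reproducible peaks outside every tRNA window but near one, the 2 nearest downstream and the 3 nearest upstream were all on X. The summit at C18A11.t2, for arginine, was 350 bp past the gene start (signal 113, rank 14). That at rte-1, for glutamate, was 1044 bp past the gene start (21.2, rank 524). The upstream ones lay 1377 bp before C30E1.t1, for glycine (39.6, rank 124), and 1462 bp before W02H3.t1 (160, rank 6). The last lay 2403 bp before F55G7.t2, for threonine (94.8, rank 17). Of these 5 peaks, 4 had a higher signal than any reproducible peak inside an X tRNA window, and none is counted in the shares above. The wider search found 11 such peaks, 8 on X and 3 on autosomes, the farthest 3738 bp upstream and 1044 bp downstream. All reproducible peaks outside tRNA windows numbered 103 on X and 418 on autosomes, and X holds 276 of the 612 nuclear tRNA genes. Pooled peaks within the same reach were not counted, so the 11 peaks give no share to compare between X and autosomes.

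Just below the reproducible threshold of 21.1 lay peaks of both X and autosomes. The X peaks with the highest signal below it were at ZK678.t1, for leucine (20.8), R01H5.t1, for threonine (20.7), T14F9.t1, for aspartate (20.2), C04E7.t1, for leucine (19.4), and C02B4.t2, for tyrosine (19.1). The autosomal ones were at C04A2.t1, for leucine (20.9), K08E7.t1, for lysine (20.7), F29C4.t1, for arginine (19.9), F22B7.t3, for phenylalanine (18.5), and K11H12.t1, for selenocysteine (17.3). These 10 lie within 4 units of the threshold, and the highest of them, at C04A2.t1, falls just short of the lowest reproducible signal.

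Most tRNA peaks lay away from the starts of coding genes. The median distance to the nearest coding gene start was 1852 bp on X (quartiles 1002 and 3523, range 62 to 11324) and 1406 bp on autosomes (quartiles 517.5 and 3035, range 7 to 6911). Peaks outside tRNA windows gave 1814 bp on X and 1305 bp on autosomes, so tRNA peaks were about as far from coding starts as other peaks of the same chromosomes. More than 1000 bp away were 61 of 82 tRNA peaks on X (74.4%) and 52 of 84 on autosomes (61.9%). For the reproducible ones the median was 1825 bp on X and 577 bp on autosomes.

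**Figure D5:**
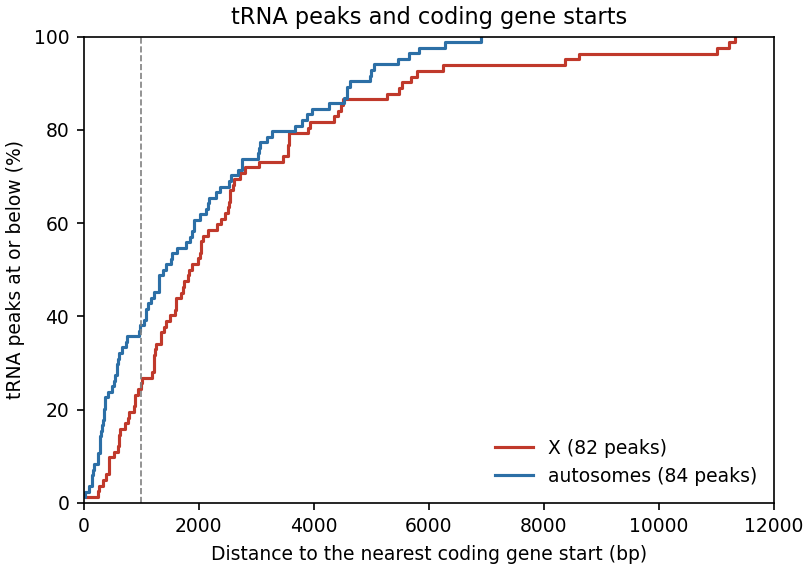
Distance from each tRNA peak's summit to the nearest coding gene start (bp) on the horizontal axis, and the percent of tRNA peaks at or below that distance on the vertical axis, for X (red) and autosomes (blue), with a dashed line at 1000 bp. The medians are 1852 bp on X and 1406 bp on autosomes, and beyond the dashed line lie 74.4% of peaks on X and 61.9% on autosomes.

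The coding genes nearest to the reproducible X peaks were spread over this range. The start of F46G11.4 was 2511 bp from the F46G11 summit, R11.4 was 718 bp from the R11 summit, srd-43 1225 bp from R04D3.t2, col-181 1255 bp from W03G11.t1, C04A11.5 999 bp from C04A11.t1, and twk-21 1599 bp from T01B4.t1. The start of M02F4.2 was 1825 bp from the M02F4 summit, W02H3.3 was 2535 bp from W02H3.t1, and sulp-3 was 3894 bp from F41D9.t3. Farthest were R04A9.1, at 5272 bp from R04A9.t1, F15G9.5, at 5795 bp from the F15G9 summit, and B0294.3, at 11217 bp from Y59E1B.t2. The C28G1.t1 summit, 62 bp from a coding start, was the closest of the X group and the only one in a coding gene window. On autosomes spe-15 was 577 bp, pqn-71 498 bp and pxn-1 5657 bp away.

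By position, 47 of 82 tRNA summits on X lay outside coding genes, 31 in an intron and 4 in an exon, against 36, 41 and 7 of 84 on autosomes. Introns held 3 of the 13 reproducible X peaks, in ZK1193.2 at R04A9.t1, in him-4 at F15G9.t1 and F15G9.t2, and in sulp-3 at F41D9.t3, and C28G1.t1 was the one in an exon. A summit also lay in a coding gene's own window for 12 of 82 tRNA peaks on X (14.6%) and 21 of 84 on autosomes (25%), where the shares for peaks outside tRNA windows were 23.0% on X and 31.3% on autosomes. Without these shared peaks the reproducible shares were 17.1% on X and 3.18% on autosomes.

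The sequence around tRNA summits largely reflects the choice of peaks beside tRNA genes and is given as a description. The median GC content within 100 bp of the summit was 46.5% on X and 46.3% on autosomes, and 47.3% for the reproducible X peaks, against 38.8% on X and 38.3% on autosomes outside tRNA windows. The B box letters GTTCNANNC, searched on both strands, were in 53 of 82 tRNA windows on X (64.6%) and 46 of 84 on autosomes (54.8%), and in 9 of 13 reproducible ones on X and 1 of 3 on autosomes. Outside tRNA windows they were in 6.88% on X and 7.0% on autosomes. The share over all tRNA peaks was 59.6%, and it was 28.3% when only 50 bp on either side of the summit were searched and 82.5% with 200 bp on either side.

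Products of the reproducible genes were varied. On X the 19 genes encode tRNAs for 10 amino acids, of 20 products among the X genes with a candidate summit. Besides proline with 4 genes and tyrosine with 3, these were alanine, glutamate, leucine and valine with 2 each and asparagine, glutamine, glycine and lysine with 1 each. Arginine, methionine and serine each had 6 X genes with a candidate summit and 0 with a reproducible one. On autosomes the 4 genes encode tRNAs for lysine with 2 genes, arginine with 1 and proline with 1, of 21 products.

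Many tRNA genes have identical copies. Without one were 57 of 276 annotated genes on X and 86 of 336 on autosomes, 8 of 92 genes with a candidate summit on X and 15 of 90 on autosomes, and 1 of 19 with a reproducible summit on X and 0 of 4 on autosomes. The largest set has 29 identical genes. Reads that fall within a copied gene cannot be placed uniquely, and how they were treated is not given in the sources used here. Their part in these peaks was not tested.

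Some of the genes that make and charge tRNAs had a candidate peak, and 1 had a reproducible one. All of the listed genes lie on autosomes, where 15.5% of coding genes had a candidate summit. Of 14 listed genes for RNA polymerase III, its factors and tRNA maturation, 5 had a candidate summit (35.7%) and 0 a reproducible one. The signals were 10.8 at mafr-1, the repressor of RNA polymerase III, 10.8 at tftc-1, which encodes a TFIIIC subunit, 9.80 at rtcb-1, the tRNA ligase, 9.55 at hpo-31 and 8.87 at xpo-3, the tRNA exporter. Of 21 listed cytosolic aminoacyl-tRNA synthetases, which load tRNAs with amino acids, 4 had a candidate summit (19.0%) and 1 a reproducible one. Among autosomal coding genes with a candidate summit, 16.6% had a reproducible one (444 of 2676). That one was fars-1, for phenylalanine, with a signal of 23.3 (rank 421) at 927 bp upstream. At aars-2, mars-1 and cars-1, for alanine, methionine and cysteine, the signals were 12.8, 9.74 and 7.53.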

How the data were processed

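The data were deposited peak lists on build ce11, the assembly that WBcel235 names, from ChIP-seq of 2 biological replicates. Per the descriptions deposited beside the files, peaks with background were called against a control, once per replicate and once on the replicates pooled, and the reproducible list is the part of the pooled list kept at an irreproducible discovery rate threshold. Not given in the sources used here: aligner, caller, threshold and the handling of reads that map more than once. The signal value is a score deposited by the authors with no stated scale. The significance is the −log10 of a q-value, per the deposited format, and ran from 2.46 to 2.93 in the reproducible list. Among tRNA peaks of the pooled list it went down to 0.0184. The summit offset in bp is another value deposited by the authors. No read counts were part of the lists, so depth is unknown.

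Genes came from Ensembl release 115 on WBcel235, and tRNA products, names and sequence from RefSeq; 607 of 612 nuclear tRNA genes matched a product. The lists cover only the nuclear chromosomes, so 22 mitochondrial tRNA genes of 634 annotated were left out, as were the lists on ce10. A summit was shared with a replicate within 100 bp. Shares carry Clopper-Pearson intervals (scipy 1.17.1, Python 3.11.15). The genes, lists, windows and rules for named genes were chosen with earlier results of these data known. Named are all tRNA genes with a reproducible summit, the 5 strongest tRNA peaks below the threshold on X and on autosomes, the reproducible peaks nearest outside the window, and the nearest coding genes; members at the window's edge were named after their values were seen. The assignment of summits to windows was tested on simulated data.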

Additional observations from a re-analysis of the deposited data

How the results depend on the processing

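The reproducible share of tRNA peaks was higher on X than on autosomes in 9 of 9 alternatives, by a varying margin. The alternatives use largely the same peaks of the same 2 replicates, so they are not independent of each other or of the main result. With each replicate alone in place of the reproducible list, the peak share ran from 9.76% to 11% on X and from 2.38% to 5.95% on autosomes, and the gene share from 12.0% to 13.0% on X and from 2.22% to 6.67% on autosomes. With the stronger 50% of the reproducible list the peak share was 3.66% on X and 1.19% on autosomes, and the gene share 7.61% on X and 1.11% on autosomes. With the 1074 strongest pooled regions the peak share was 36.6% on X and 14.3% on autosomes, and the gene share 42.4% on X and 14.4% on autosomes. These moved as the number of regions called changed. Windows of 500 bp upstream to 100 bp downstream gave peak shares of 18.1% on X and 3.03% on autosomes. In 2 settings chosen after seeing the data, summits within 100 bp of a tRNA gene gave 17.6% on X and 3.23% on autosomes, and peaks found in both replicate lists gave 15.9% on X (7 of 44) and 5.56% on autosomes (2 of 36). The share of all tRNA peaks with a replicate 1 summit was 48.2% within 50 bp, 59.6% within 100 bp and 72.3% within 200 bp. The B box share moved with the width searched, to 28.3% and 82.5%. The small number of reproducible autosomal tRNA peaks, 3, limits every share on that side. No paired analysis was possible because both samples belong to 1 group.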

Other observations

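The letters GAGAGA, chosen after the sequences had been seen and searched on either strand within 100 bp of the summit, were in 10 of 13 reproducible tRNA windows on X (76.9%, exact 95% interval 46.2% to 94.96%) and in 1 of 3 on autosomes. In tRNA windows that were not reproducible they were in 24 of 69 on X (34.8%) and 21 of 81 on autosomes (25.9%). Reproducible peaks outside tRNA windows held them in 48 of 103 cases on X (46.6%) and 189 of 418 on autosomes (45.2%), and all pooled peaks outside tRNA windows in 19.5% on X and 21.0% on autosomes. The longer run GAGAGAGA was in 2 of 13 reproducible tRNA windows on X and 0 of 3 on autosomes. These are counts of letters chosen after the windows had been viewed, with no test. The interval given takes no account of that choice.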
